A study of Homo sapiens with 4 samples.

Results

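The 40 genes described here encode proteins of mitosis, namely mitotic kinases and cyclins, spindle checkpoint proteins, kinesins, kinetochore and spindle proteins, and the cohesin and condensin complexes. They were chosen by name and function and not by a measured value, but with earlier results of these data known. They are 40 of the 17546 genes with an intron that could be placed on the GENCODE 29 annotation of GRCh38. Nascent RNA was taken from the chromatin of K562 cells, a human chronic myeloid leukaemia line, and sequenced as long PacBio reads. There were 2 samples with the K700E mutation of SF3B1 and 2 samples with wild-type SF3B1 (WT), all harvested 4 days after induction of the allele with 1 µg/ml doxycycline. The labels do not say whether a group's samples came from separate cultures or from more than 1 clone, so p-values measure only the spread between these samples. The study compared how far introns are removed while the RNA is still on chromatin, and the measure used below, called splicing efficiency, is the percentage of an intron's reads in which it has been spliced out.

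Entry into mitosis is driven by CDK1 with cyclin B and by the Aurora and Polo-like kinases. Kinesins and spindle proteins then build the spindle, kinetochores attach chromosomes to it, and the spindle checkpoint holds the anaphase-promoting complex inactive until all chromosomes are attached. Cohesin is the ring that holds sister chromatids together until separase opens it, and condensin compacts the chromosomes. SF3B1, the mutated protein, is a subunit of the U2 snRNP that recognises the branch site near the 3′ end of an intron, and K700E recurs in myeloid disease.

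In these genes 1055 annotated introns were placed, of which 777 were taken as the most used and non-overlapping introns of each gene. Reads fell on 687 and 737 of the 777 introns in the K700E samples and on 754 and 700 in the WT samples. Each read counted once in every intron it covered. There were 3071 and 6801 such read-intron overlaps in the K700E samples, against 12096 and 6525 in the WT samples. Only 38 introns, from 8 of the 40 genes, had at least 10 reads in every sample: 13 in ASPM, 9 in NUMA1, 7 in CKAP5, 4 in BUB1, 2 in NUSAP1 and 1 each in CDK1, PRC1 and SMC4. Summed over a gene's introns, 39 genes reached that minimum, and MAD2L1 did not. MAD2L1, the checkpoint protein that inhibits the anaphase-promoting complex, had 7 and 32 reads in K700E and 21 and 8 in WT.

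Over all genes the K700E samples held 294529 and 597036 read-intron overlaps on the most used introns, against 975550 and 780355 in the WT samples. K700E replicate 1 was therefore the shallowest library. The cell type label calls these cells epithelial, while erythroid and K562 markers summed to 1871 and 2481 reads per 1000000 (RPM) in K700E and to 2597 and 4434 RPM in WT (read-intron overlaps, scaled to those on all placed introns of the library), with reads on 10 of 12 genes and KLF1 and EPOR at 0. The 8 epithelial markers summed to 58.7 and 89.0 RPM in K700E and 70.5 and 50.6 in WT, with KRT5 and CLDN4 at 0. Lymphocyte, fibroblast and macrophage markers did not exceed 55 RPM in any sample. Most of the reads in the erythroid and K562 sums lay on TFRC. It held 730 of 860 and 1716 of 2257 reads in K700E, and 2816 of 3497 and 3571 of 5254 in WT. GATA1 had 6 and 10 reads in K700E and 4 and 11 in WT. Both sums in K700E were below those in WT, an order that rests largely on TFRC. Their part in the results below was not tested.

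The least spliced of the 38 introns was intron 4 of PRC1, whose protein bundles antiparallel microtubules at the spindle midzone and is needed for cytokinesis. It and intron 5, which had fewer reads, are among 14 introns of the gene and lie on the minus strand of chromosome 15, at chr15:90981670-90981747 and chr15:90981034-90981498. Their sequence is shown because intron 4 was the least spliced of the 38 and intron 5, its neighbour, was about as little spliced. It was read from GENCODE 29 transcripts that retain the intron (GRCh38). Capitals mark the first 6 bases of intron 4 and the AG that ends each intron, and of intron 5 the last 100 bases are printed, chr15:90981034-90981133.
PRC1 intron 4: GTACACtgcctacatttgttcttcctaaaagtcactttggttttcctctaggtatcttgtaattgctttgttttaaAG
PRC1 intron 5, 3′ end: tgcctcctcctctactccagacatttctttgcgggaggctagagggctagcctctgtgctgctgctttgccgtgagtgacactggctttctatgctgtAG
Both introns begin with GT and end with AG. Intron 4 is 78 nt long with 34.6% G and C, and intron 5 is 465 nt long with 37.6%. In each, 13 of the 20 bases before the final AG are pyrimidines.

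PRC1 intron 4 carried its junction in 2 of 10 and 5 of 20 reads in the K700E samples, against 11 of 67 and 6 of 35 reads in the WT samples. These are efficiencies of 20.0% and 25.0% in K700E and 16.4% and 17.1% in WT, so most reads that covered the intron still held it in all 4 samples. Wilson's 95% limits were 5.67 to 51.0% and 11.2 to 46.9% in K700E and 9.42 to 27.1% and 8.10 to 32.7% in WT. These intervals cover counting error only, because reads amplified by PCR without molecular identifiers are not independent molecules. Both K700E values lay above both WT values, by 5.72 percentage points on average, with an adjusted p of 0.992 by edgeR's quasi-likelihood test. PRC1 intron 5 was spliced in 0 of 6 and 4 of 18 reads in K700E and in 12 of 57 and 9 of 30 reads in WT. The 0 of 6 reads allow a share of up to 50%, so the K700E sample with the fewest reads cannot be told from the others.

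The next least spliced of the 38 introns lay in CDK1, ASPM and CKAP5. The bases that flank those of CDK1 and CKAP5 in the spliced transcript are shown with those of introns 9 and 3 of NUMA1, which had the lowest p-values of the introns tested in these genes. The last 20 bases of the upstream exon are in lower case and the first 20 bases of the downstream exon in capitals (GENCODE 29, GRCh38, transcript strand).
CDK1 intron 6, chr10:60792054-60792147, plus strand: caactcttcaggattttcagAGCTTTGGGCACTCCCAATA
CKAP5 intron 30, chr11:46762763-46762975, minus strand: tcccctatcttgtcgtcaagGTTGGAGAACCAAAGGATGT
NUMA1 intron 9, chr11:72018981-72019493, minus strand: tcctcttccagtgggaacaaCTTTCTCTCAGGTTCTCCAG
NUMA1 intron 3, chr11:72029291-72035901, minus strand: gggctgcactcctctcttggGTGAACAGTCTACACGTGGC
Intron 6 of CDK1, the kinase that drives mitotic entry, is 94 nt long and was spliced in 5 of 10 and 12 of 19 reads in K700E and in 30 of 53 and 10 of 17 reads in WT. Its efficiencies of 50% and 63.2% in K700E lay on either side of the 56.6% and 58.8% in WT. Intron 11 of ASPM, the spindle pole protein whose loss causes microcephaly, is 90 nt long. It was spliced in 72.2% of 54 and 59.6% of 52 reads in K700E, against 61.3% of 119 and 68.6% of 86 reads in WT, so the groups overlapped here too. Intron 30 of CKAP5, a microtubule polymerase also known as ch-TOG, is 213 nt long and was spliced in 80% and 56.2% of reads in K700E and in 82.2% and 61.1% in WT. In this intron the replicates of each group differed by more than the groups did.

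**Figure D1:**
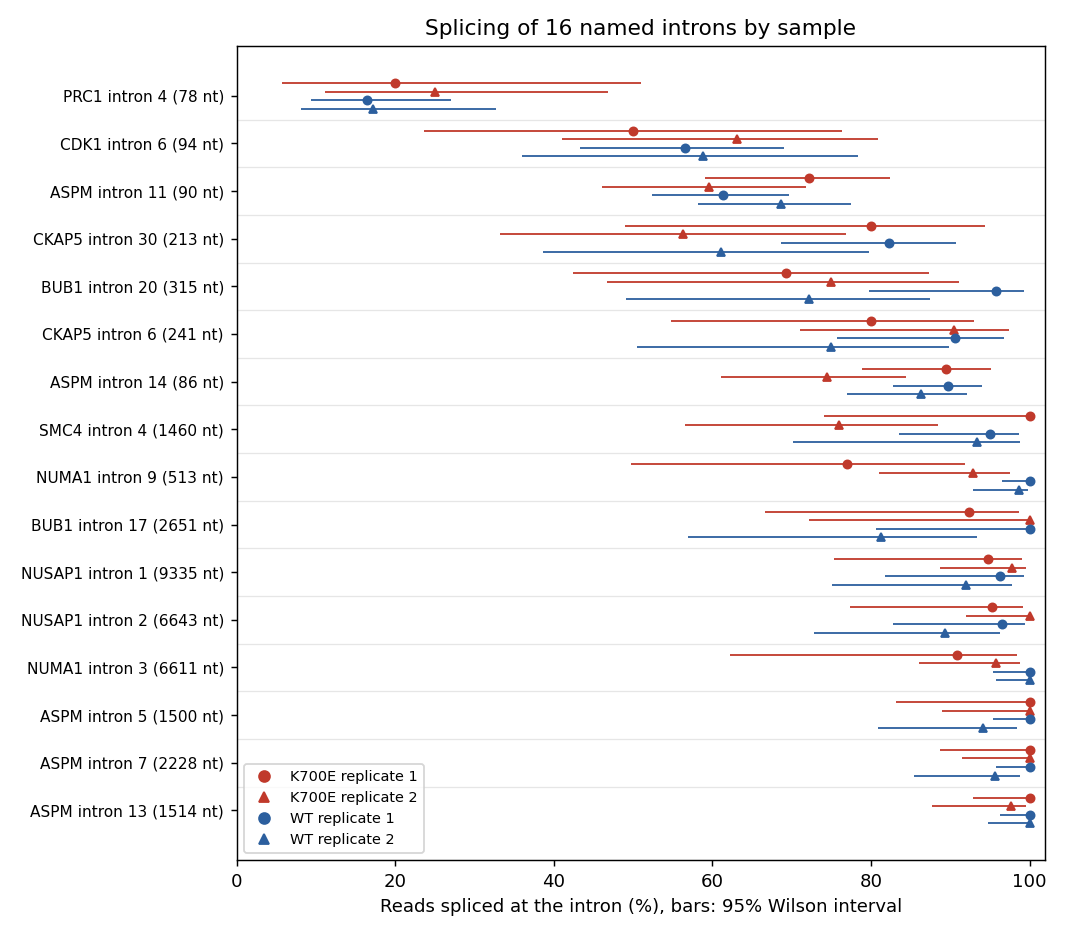
Splicing efficiency of 16 introns of the mitosis genes (horizontal axis, percent of an intron's reads that are spliced) in each K700E and WT sample, ordered by mean efficiency. Bars are 95% Wilson intervals of a single sample, and the points of the 2 groups overlap in 13 of the 16 introns, with PRC1 intron 4 between 16.4% and 25.0% in all 4 samples.

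Shorter introns were less spliced. The 5 introns under 150 nt had a median efficiency of 65.4% over the 4 samples, the 9 introns of 150 nt to under 1000 nt had 92.1%, and the 24 introns of 1000 nt or more had 94.5%. The same medians over the introns of all genes were 77.1% (503 introns), 86.5% (1514 introns) and 94.5% (2513 introns). Across the 38 introns, the logarithm of length and the mean efficiency had a Pearson r of 0.55 and a Spearman rho of 0.44, against 0.35 and 0.43 across all 4530 introns. These correlations are descriptions across introns, which share libraries and genes and are not independent. Length did not fix the level, since ASPM introns 14 and 15, of 86 and 115 nt, averaged 85.0% and 90.1%, far above PRC1 intron 4 at 78 nt. In each sample the means of the introns under 150 nt were 64.9% and 60.9% in K700E and 62.9% and 65.1% in WT.

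**Figure D2:**
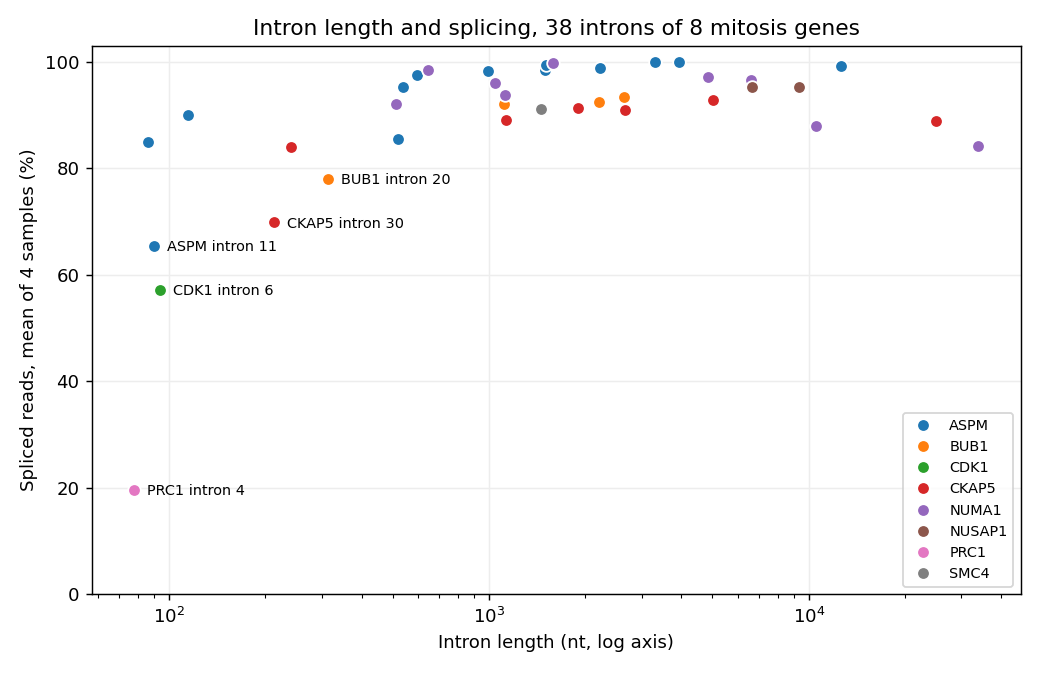
Splicing efficiency averaged over the 4 samples (vertical axis, percent) against intron length (horizontal log axis, nt) for the 38 introns that reached 10 reads in each sample, coloured by gene. Introns under 150 nt span 19.6% to 90.1%, while all introns of 1000 nt or more lie at 84.2% or above.

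The introns that reached 10 reads in every sample were mostly removed on chromatin. Of the 38 introns, 26 (68.4%) were spliced in at least 90% of reads and 4 (10.5%) in under 75%, against 56.2% and 18.5% of all 4530 introns. The 13 ASPM introns had a median of 98.2%, and introns 10 and 16 of ASPM were spliced in every read of all 4 samples. The 9 NUMA1 introns had a median of 96.0% and a lowest value of 84.2%. The 7 CKAP5 introns had a median of 89.0%, and the 4 introns of BUB1, a kinase of the spindle checkpoint, had 92.2%. These shares describe few genes, mainly ASPM and NUMA1. Summed over each gene's introns, the median of 39 mitosis genes was 77.6% and 76.6% in K700E and 83.5% and 76.8% in WT. Over all 3946 genes it was 75.1% and 81.2% in K700E and 86.1% and 78.1% in WT.

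A lower minimum of 5 reads in every sample admitted 161 introns of 30 genes. In 14 of them (8.70%), from 9 genes, under 50% of reads were spliced on average, a share close to the 8.64% of all 13860 such introns. The median length of these 14 introns was 292 nt, against 811 nt over the 161. Over all genes the same medians were 346 nt and 1301 nt. The lowest mean was that of intron 6 of SMC4, a core ATPase of condensin, at 18.1%. It is 241 nt long and was spliced in 3 of 8 and 0 of 10 reads in K700E and in 2 of 20 and 2 of 8 reads in WT. Introns 16 and 11 of ANLN, which encodes the contractile ring scaffold anillin, averaged 38.7% and 39.2%. Intron 10 of CENPE, a kinesin that moves chromosomes to the spindle equator, averaged 28.5%. The others were introns 3 and 16 of SMC4, introns 4 and 8 of the condensin gene NCAPG, intron 10 of the cohesin gene RAD21, intron 3 of the proliferation marker MKI67, intron 13 of KIF23 and intron 9 of KIF2C. With a minimum of 1 read in every sample, 583 introns of the mitosis genes could be tested, and edgeR called 0 of them, with 3 at an unadjusted p under 0.05.

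Between K700E and WT, none of the 36 introns that could be tested passed an adjusted p of 0.05 in edgeR's quasi-likelihood test. Over all genes 5 of 4344 introns passed (0.115%), 4 of them lower in K700E (0.0921%) and 1 higher (0.023%). At an unadjusted p under 0.05, 1 of the 36 introns remained, against 140 of all 4344 (3.22%). DESeq2 and limma called 0 of these introns. Of the 36, 20 were lower and 16 higher in K700E, with a median difference of −0.83 percentage points, against −2.21 points over all introns tested. That median turned to 1.06 points without K700E replicate 1, when 121 introns reached the minimum, and to 0.15 points without WT replicate 1. It was also positive with a minimum of 20 reads, at 0.79 points over 11 introns, and with ratios above 1 left out, at 0.12 points. In 3 introns both K700E samples were below both WT samples, where the background was 21% of introns, and in 1 both were above, where it was 8.82%.

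All 3 introns that were lower in both K700E samples lay in NUMA1, which encodes a spindle pole protein that anchors microtubules and dynein. Intron 9 of NUMA1, 513 nt long, was spliced in 10 of 13 and 39 of 42 reads in K700E, against 105 of 105 and 74 of 75 reads in WT. This gave 84.9% ± 11.3 in K700E and 99.3% ± 0.943 in WT (SD, n = 2 each). The log2 odds of splicing differed by −4.19 (SE 2.03), with an adjusted p of 0.992 by edgeR, and this was the 1 intron of the 36 with an unadjusted p under 0.05. The difference of −14.4 points was −6.48 points without K700E replicate 1 and −22.4 points without K700E replicate 2. The 3 unspliced reads in each K700E sample and the 1 in WT carry this difference. Intron 3 of NUMA1, 6611 nt long, was spliced in 10 of 11 and 46 of 48 reads in K700E and in all of 80 and 86 reads in WT. The WT counts of 0 unspliced reads allow unspliced shares of up to 3.75% and 3.49%. In the K700E samples 90.9% and 95.8% of reads were spliced, and the difference rests on 3 unspliced reads in all. In NUMA1 intron 7, 10 of 11 and 45 of 47 reads were spliced in K700E, against 105 of 108 and 77 of 77 in WT. Because a read can cover several introns, the same reads may recur among these 3 introns, which are not independent. NUMA1 introns 1, 2 and 8 averaged higher in K700E, at 93.2%, 86.9% and 100%, against 82.9%, 81.5% and 99.5% in WT. The rest of its introns tested averaged lower in K700E. Introns 1 and 2 also overlap alternative junctions, and reads spliced there may count as unspliced. A junction over both introns had 0 and 5 reads in K700E and 6 and 2 in WT. Within intron 2, a junction from chr11:72040958 had 0 and 2 reads in K700E and 3 and 12 in WT. Another, from chr11:72049418, had 1 and 2 in K700E and 4 and 4 in WT. Their part in the efficiencies was not tested.

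Apart from PRC1 intron 4, described above, the remaining introns with the lowest p-values differed by less than the replicates of at least 1 group did. BUB1 intron 20, of 315 nt, was spliced in 69.2% and 75% of reads in K700E and in 95.8% and 72.2% in WT. SMC4 intron 4 was spliced in 100% and 76.0% of reads in K700E and in 95% and 93.3% in WT, so it was lower in K700E replicate 2 and higher in K700E replicate 1. ASPM intron 14 was spliced in 89.5% and 74.5% of reads in K700E and in 89.7% and 86.2% in WT, and ASPM intron 13 missed splicing in 1 read of K700E replicate 2. Among introns higher in K700E, NUSAP1 intron 2 was spliced in 95.2% and 100% of reads in K700E and in 96.6% and 89.3% in WT. NUSAP1 encodes a microtubule-binding protein of the spindle, and its intron 1 differed by 2.13 points. BUB1 intron 17 differed by 5.53 points, and ASPM introns 5 and 7 were fully spliced in both K700E samples and WT replicate 1 and in 94.1% and 95.7% of reads in WT replicate 2. CKAP5 intron 6, the last of the 6 least spliced introns, had 80% and 90.5% in K700E and 90.6% and 75% in WT.

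Summing spliced and unspliced overlaps over each gene's introns let 39 of the 40 genes be compared. None passed an adjusted p of 0.05 by edgeR's quasi-likelihood test, and all adjusted p-values were 1.00 when rounded. Over all genes 1 of 3946 passed (0.0253%), and it was higher in K700E. At an unadjusted p under 0.05 the count was 0 of the 39 genes, against 137 of all 3946 (3.47%), and limma and DESeq2 called 0 of the 39. Efficiency was lower in K700E in 25 genes and higher in 14, where 2446 of all 3946 genes were lower, with a median difference of −2.96 points, against −2.91 points over all genes tested, and without WT replicate 1 the median of the mitosis genes turned to 1.5 points. In 7 genes both K700E samples lay below both WT samples (background 20.6%), and in 4 both lay above (background 10.3%). Because 1 read can cover several introns of a gene, no counting interval is given for these sums.

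**Figure D3:**
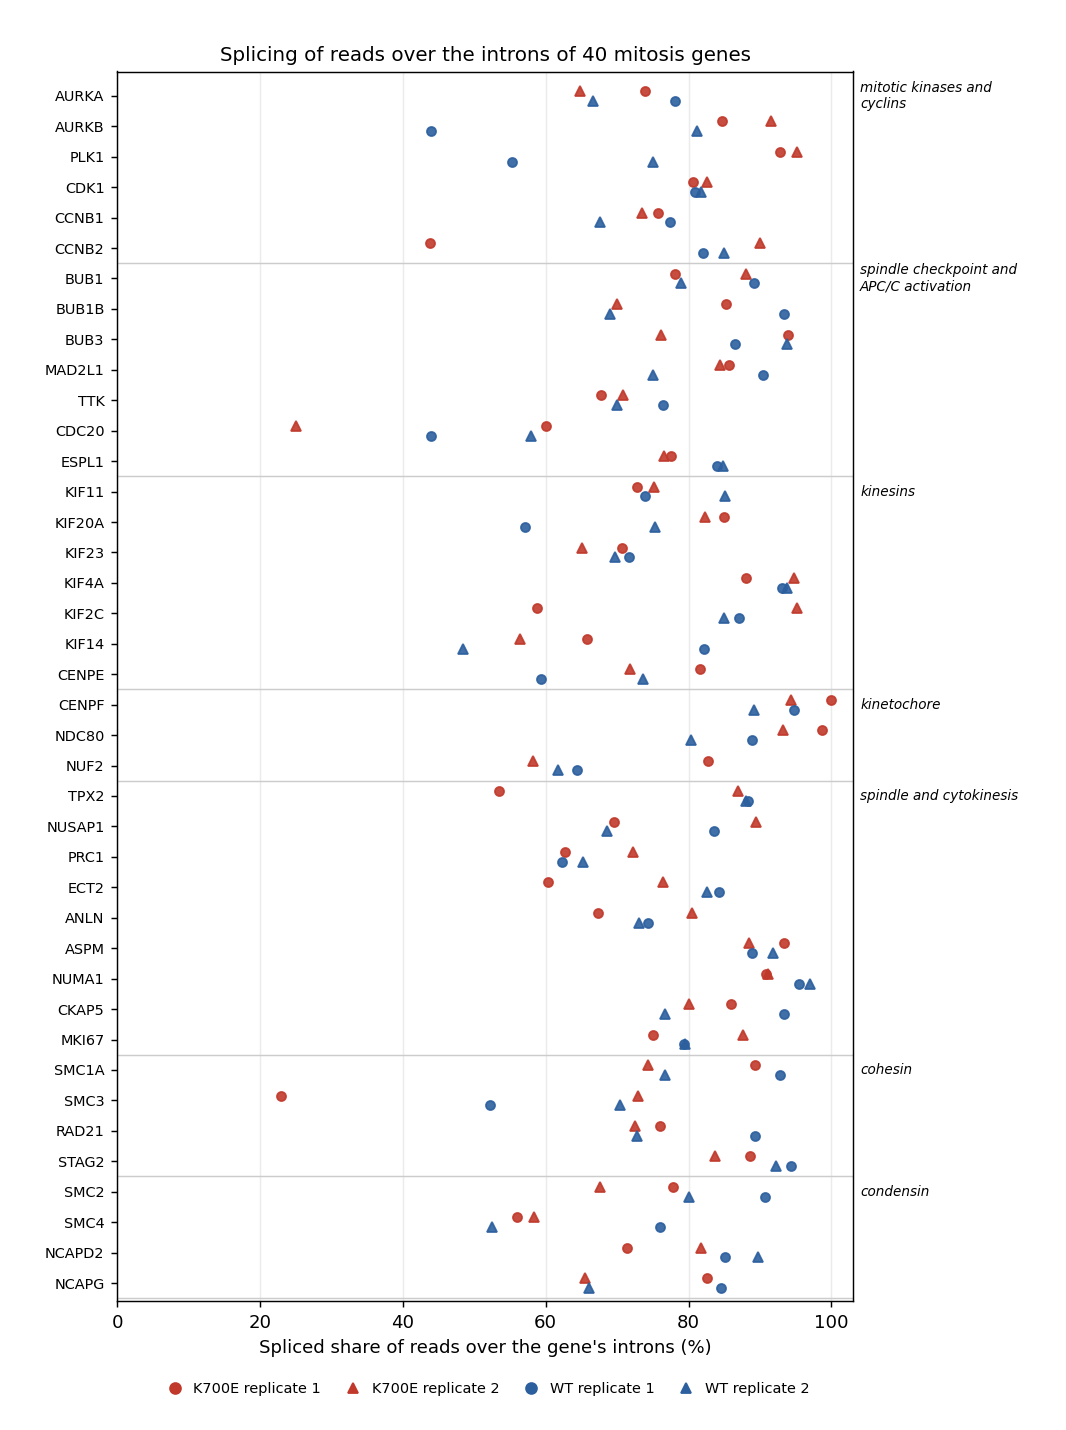
Splicing efficiency summed over each gene's introns (horizontal axis, percent of read-intron overlaps that are spliced) for the 40 mitosis genes grouped by role, with each K700E and WT sample as a point. K700E samples lie below both WT samples in 7 genes, among them NUMA1, STAG2 and NCAPD2, and above them in 4, PLK1, AURKB, KIF20A and NDC80.

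Among the mitotic kinases and cyclins, 2 of 6 genes were lower and 4 higher in K700E. PLK1, the Polo-like kinase of centrosome maturation and mitotic entry, was spliced at 92.9% and 95.2% in K700E, against 55.3% and 75% in WT. Its means were 94.0% ± 1.68 in K700E and 65.2% ± 13.9 in WT (SD, n = 2 each), with a log2 odds difference of 2.96 (SE 1.63). PLK1 had only 14 and 21 overlaps in K700E and 47 and 28 in WT. AURKB, the kinase of the chromosomal passenger complex, was at 84.6% and 91.5% in K700E and 44.0% and 81.2% in WT. Without WT replicate 1 the difference of AURKB fell from 25.4 to 6.82 points, and that of PLK1 from 28.9 to 19.0 points. AURKA, the centrosomal Aurora kinase, was at 73.9% and 64.8% in K700E and 78.1% and 66.7% in WT, and CDK1 was within 80.6 to 82.7% in all 4 samples. The cyclins CCNB1 and CCNB2 overlapped between the groups.

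All 6 tested genes of the spindle checkpoint and its target were lower in K700E on average, with a median difference of −4.51 points and none called, and in 5 of them the groups overlapped. They were BUB1, BUB1B, BUB3, TTK, CDC20 and ESPL1. Of 9 other genes of this role on a wider list of mitosis genes, 7 were lower and 2 higher. Of the 6, only ESPL1, which encodes separase, had both K700E samples below both WT samples, at 77.6% and 76.6% in K700E and 84.0% and 84.8% in WT. CDC20, the activator of the anaphase-promoting complex, was the least spliced of the 6, at 60.0% and 25.0% in K700E and 44.0% and 58.0% in WT. These values rest on 10 and 32 overlaps in K700E and 100 and 69 in WT.

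Of the 7 kinesins, 5 were lower and 2 higher in K700E. KIF20A, which acts at the midzone in cytokinesis, was at 85.0% and 82.4% in K700E and 57.0% and 75.3% in WT, with a log2 odds difference of 1.31 (SE 0.92). CENPE overlapped between the groups, as did KIF11, KIF23, KIF4A, KIF2C and KIF14. In KIF2C, a microtubule depolymerase, the K700E replicates were at 58.8% and 95.2% and the WT replicates at 87.0% and 84.9%.

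All 3 kinetochore genes were higher in K700E on average, with a median difference of 7.46 points and none called. Of 10 other kinetochore genes on the wider list, 5 were lower and 5 higher, with a median of −1.50 points. NDC80, the microtubule-binding subunit of the complex named after it, was at 98.6% and 93.2% in K700E, against 88.9% and 80.4% in WT. Its log2 odds difference was 1.92 (SE 1.04), and its p-value was the lowest of the 39 genes, with an adjusted p of 1.00 by edgeR. CENPF was at 100% and 94.3% in K700E and 94.8% and 89.1% in WT, so that 1 K700E value lay below 1 WT value. NUF2, the partner of NDC80 in the same complex, was at 82.8% and 58.2% in K700E and 64.3% and 61.7% in WT.

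Of the 9 spindle and cytokinesis genes, 4 were lower and 5 higher in K700E. NUMA1 was at 90.9% and 91.2% in K700E, against 95.4% and 97.0% in WT, a difference of −5.14 points (log2 odds −1.33, SE 0.74). This gap was larger than the spread of either pair of replicates. ECT2, the exchange factor that activates RhoA for the contractile ring, was at 60.3% and 76.4% in K700E and 84.3% and 82.6% in WT. TPX2, the spindle assembly factor that activates AURKA, was at 53.4% and 86.9% in K700E and 88.4% and 88.0% in WT, so nearly all of its difference came from K700E replicate 1. ASPM, CKAP5, NUSAP1, PRC1, ANLN and MKI67 overlapped between the groups.

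All 4 cohesin genes and all 4 condensin genes were lower in K700E on average, with median differences of −7.00 and −8.91 points and none called. On the wider list 7 of 9 other cohesin genes were lower, with a median of −5.46 points, while 2 of 5 other condensin genes were lower and 3 higher, with a median of 0.44 points. STAG2, a cohesin subunit that is recurrently mutated in myeloid disease, was at 88.5% and 83.7% in K700E, against 94.3% and 92.3% in WT, a log2 odds difference of −1.20 (SE 0.86). SMC1A and RAD21 overlapped between the groups, and SMC3, the other ATPase of the cohesin ring, was at 23.0% and 72.9% in K700E and 52.2% and 70.4% in WT. In condensin, NCAPD2, a regulatory subunit, was at 71.4% and 81.8% in K700E and 85.1% and 89.7% in WT. SMC2, the partner of SMC4, was at 77.8% and 67.6% in K700E and 90.7% and 80% in WT, on 18 and 34 overlaps in K700E and 43 and 35 in WT. SMC4 and NCAPG overlapped between the groups. Pooled over its genes, cohesin was spliced in 71.2% and 77.6% of overlaps in K700E and 87.7% and 82.7% in WT, and condensin in 70.4% and 68.9% in K700E and 82.5% and 79.1% in WT. Pooling gives genes with more reads more weight. With each gene counted equally, cohesin averaged 69.2% and 75.9% in K700E and 82.1% and 78.0% in WT. Condensin then averaged 72.0% and 68.3% in K700E and 84.1% and 72.1% in WT, so its groups nearly met. The other genes of both complexes overlapped between the groups when pooled, at 71.6% and 85.6% in K700E and 89.5% and 81.3% in WT for cohesin and at 90.3% and 88.5% in K700E and 91.2% and 85.9% in WT for condensin.

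The nascent level, meaning the read-intron overlaps on a gene, was compared in RPM as well. It was taken here over the most used introns with edgeR's TMM scaling between libraries. None of the 39 genes passed an adjusted p of 0.05 by edgeR's quasi-likelihood test, and neither did any of all 3954 genes tested (0%). At an unadjusted p under 0.05 there were 2 of the 39, KIF20A and AURKA, against 261 of 3954 (6.6%). DESeq2 called 0 of the 39 and 1 gene over all. In K700E 23 genes were lower and 16 higher, with a median log2 difference of −0.08 against −0.01 over all genes tested. This balance depended on the scaling: by library totals all genes had a median of 0.22, the 39 genes 0.16, and 17 of them were lower and 22 higher. Without WT replicate 1 the median of the 39 genes turned to 0.21. In 9 genes (23.1%) both K700E samples were below both WT samples, where the background was 17.1%, and in 7 (17.9%) both were above, where it was 19.1%. A read counts once in every intron it covers, so a gene's level in these bulk samples also depends on the number covered per read. For any gene that differed, changes in that number, in cell cycle stage shares and in nascent RNA per cell cannot be told apart.

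KIF20A had the lowest p-value. It stood at 60.8 and 190.2 RPM in K700E, against 653.3 and 329.8 in WT, a log2 difference of −1.94 (SE 0.61) with an adjusted p of 0.721 by edgeR. Both K700E samples were below both WT samples. Without WT replicate 2 the log2 difference was −2.36 and the adjusted p 0.00960, so KIF20A passed only there, while 62 of all genes did. It was −1.39 without K700E replicate 1, −1.37 without WT replicate 1 and −3.05 without K700E replicate 2. The other genes with the lowest p-values among those lower in K700E were CDC20, NCAPD2, NUMA1 and RAD21. CDC20 had 30.4 and 51.1 RPM in K700E, on 10 and 32 overlaps, and 115.0 and 92.1 in WT. NCAPD2 had 298.1 and 289.3 in K700E and 586.6 and 506.1 in WT. NUMA1 had 401.6 and 831.1 in K700E and 1125 and 1095 in WT. In all 3 the groups did not overlap. RAD21, the cohesin subunit that separase cleaves, had 152.1 and 156.6 in K700E and 452.0 and 146.9 in WT, and without WT replicate 1 its log2 difference turned to 0.06. CCNB1, BUB3, NUF2, KIF2C and PRC1 were also lower in both K700E samples.

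AURKA stood highest relative to WT, at 70.0 and 113.5 RPM in K700E, against 36.8 and 16 in WT. The log2 difference was 1.79 (SE 0.68), with an adjusted p of 0.721 by edgeR. These levels rest on 23 and 71 overlaps in K700E and 32 and 12 in WT. SMC1A, an ATPase of the cohesin ring, had 282.9 and 187.0 in K700E and 79.4 and 132.2 in WT, and KIF14, a kinesin of cytokinesis, had 346.8 and 322.8 in K700E and 218.5 and 126.8 in WT. In both the groups did not overlap. NDC80 had 222.1 and 447.5 in K700E and 258.8 and 136.2 in WT, and SMC3 had 225.1 and 135.8 in K700E and 156.4 and 36.1 in WT, so in these 2 genes the groups overlapped. BUB1, BUB1B, NUSAP1 and SMC2 were also higher in both K700E samples. Within cohesin 2 genes were lower and 2 higher, and within condensin likewise.

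**Figure D4:**
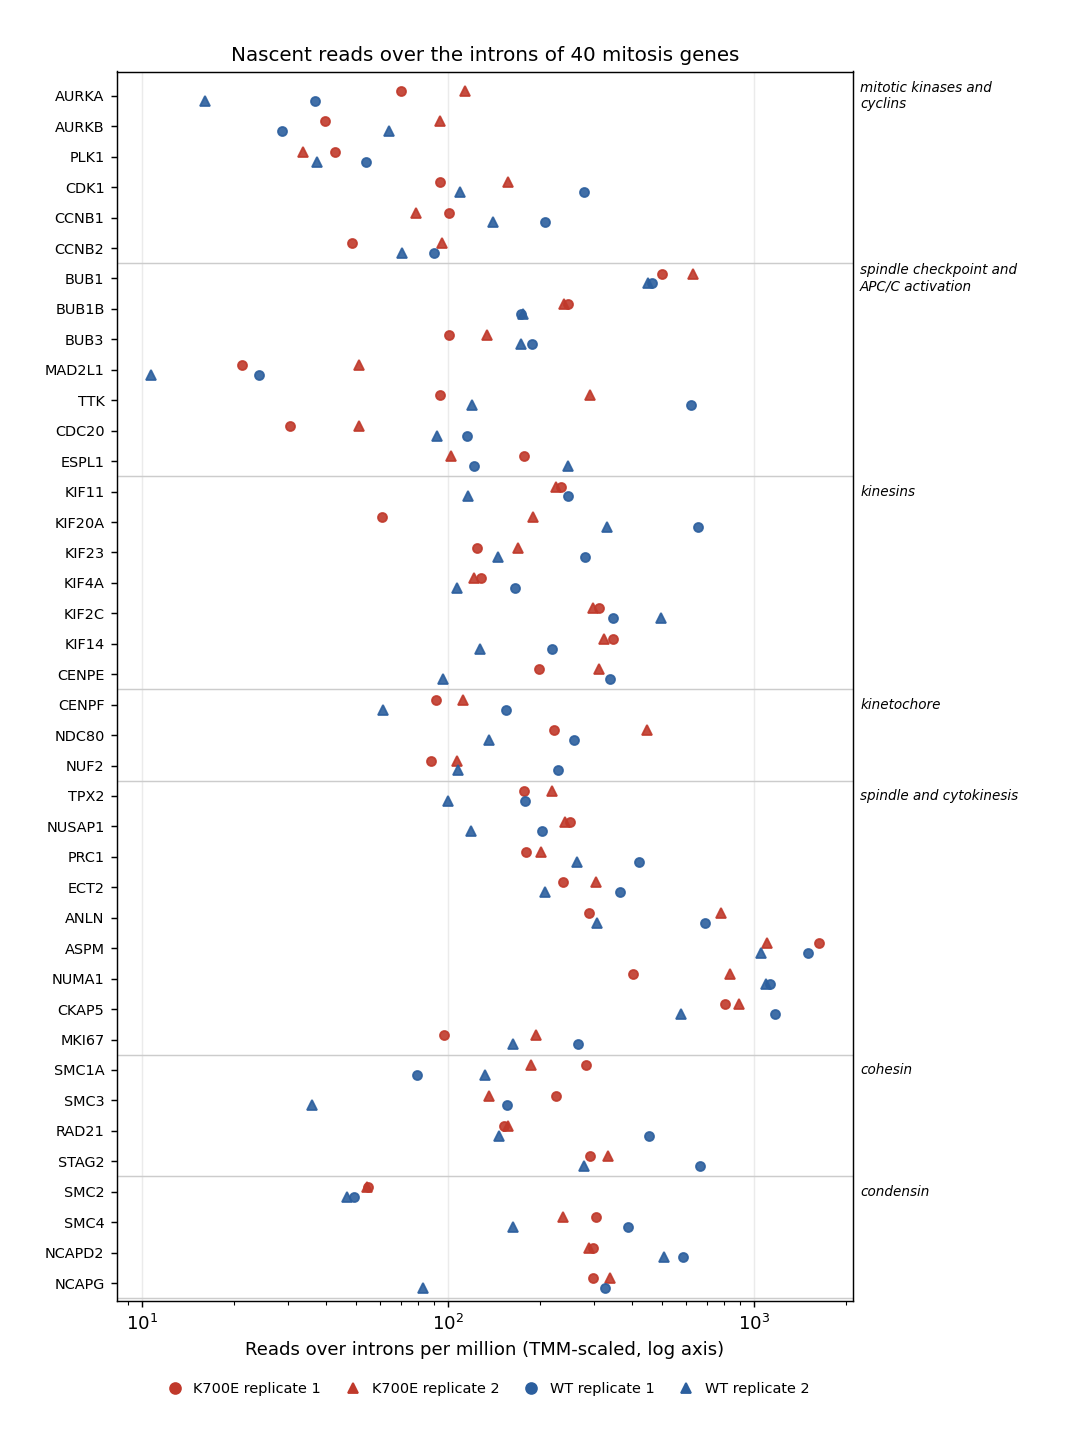
Nascent reads over introns (horizontal log axis, TMM-scaled RPM), for the 40 mitosis genes grouped by role, with each K700E and WT sample as a point. KIF20A (60.8 and 190.2 in K700E, 653.3 and 329.8 in WT) and AURKA (70.0 and 113.5 in K700E, 36.8 and 16 in WT) stand furthest apart, and 24 of the 40 genes overlap between the groups.

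Where along the gene the overlaps lay was described by the share on the 3′-most 50% of its introns. The median share over 39 genes was 42.0% and 33.9% in K700E and 38.2% and 27.4% in WT, against 40.3% and 35.5% in K700E and 42.1% and 37.8% in WT over 3749 genes. In 7 of the genes both K700E samples were lower (background 21.1%), and in 8 both were higher (background 12.2%). KIF20A had 45.0% and 44.5% of its overlaps on these later introns in K700E and 21.8% and 19.4% in WT. AURKA had 47.8% and 40.8% in K700E and 84.4% and 75% in WT, and SMC2 had 12.5% and 24.2% in K700E and 59.5% and 55.9% in WT. These 3 genes are named after their values were seen, and their shares were not tested. NUMA1 reads lay almost wholly on its early introns, with 11% and 7.54% on the later ones in K700E and 4.64% and 3.98% in WT.

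Alternative splice sites at least 12 nt apart with at least 10 junction reads were found in NUMA1, NUF2, NUSAP1, KIF23 and TTK. For TTK, the checkpoint kinase Mps1, a site 12 nt before the more used one was joined in 0 and 10 reads in K700E and in 3 and 6 reads in WT, and the more used one in 2 and 16 reads in K700E and 13 and 3 in WT. In NUSAP1 a site 45 nt further on was used in 1 and 2 reads in K700E and 11 and 0 in WT, against 7 and 15 reads in K700E and 15 and 4 in WT at the more used site. In KIF23, a kinesin of the central spindle, an alternative site 788 nt away was used in 0 reads of both K700E samples and in 7 and 3 reads in WT, while the more used site had 0 and 4 reads in K700E and 7 and 2 in WT. In TTK the alternative site had fewer reads than the more used one in WT replicate 1 and more in WT replicate 2, so the WT replicates differed from each other. No alternative site was tested.

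The wider list held 100 other genes of mitosis, 98 of them with a placed intron, and gave 59 genes and 138 introns of 16 genes to test. None of them passed an adjusted p of 0.05 by edgeR in any of the 3 comparisons. At an unadjusted p under 0.05 there were 2 introns, 2 genes by efficiency and 4 genes by nascent level. By efficiency 34 genes were lower and 25 higher in K700E, with a median of −1.76 points. KNTC1, a subunit of the kinetochore complex that recruits dynein and checkpoint proteins, had the lowest p-value at 92.0% and 94.4% in K700E and 96.9% and 97.1% in WT, a log2 odds difference of −1.20 (SE 0.44). ANAPC1, the largest subunit of the anaphase-promoting complex, was at 71.3% and 89.2% in K700E and 94.7% and 92.5% in WT. RCC1, the exchange factor that loads Ran with GTP on chromatin, was at 17.0% and 50% in K700E and 82.9% and 44.9% in WT, so its groups overlapped. By nascent level 29 were lower and 30 higher. CDC25A, a phosphatase that activates cyclin-dependent kinases, had 127.8 and 99.1 RPM in K700E and 12.7 and 17.4 in WT (log2 2.90, SE 0.69, adjusted p 0.721). WEE1, the kinase that opposes it, had 30.4 and 81.5 in K700E and 479.6 and 158.9 in WT (log2 −2.47, SE 0.70, adjusted p 0.721 by edgeR). TACC3, a partner of CKAP5 at the spindle, had 54.8 and 40.0 RPM in K700E and 19.6 and 17.4 RPM in WT. Some of these levels rest on few overlaps. CDC25A had 42 and 62 in K700E and 11 and 13 in WT. WEE1 had 10 and 51 in K700E and 417 and 119 in WT, and TACC3 had 18 and 25 in K700E and 17 and 13 in WT.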

How the data were processed

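The deposited tables give, per annotated intron and sample, a count of reads over the intron, a count of reads with its junction, and their ratio to 2 decimals. Per the submitters' processing notes, the authors used cutadapt, minimap2 and hg38; no source used here gives their versions or how reads were assigned to introns. Deposited tables of RNA 3′-end positions bear no gene names and were not used. Table rows were placed on GENCODE 29 by transcript, intron number, start and strand (87.3 to 87.6% of rows placed). For each gene the introns with the most junction reads that do not overlap were kept, since annotated alternatives that overlap a used intron would count its spliced reads as unspliced. Junction counts above the read count were set to it, so that no ratio exceeded 1.

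Spliced and unspliced counts were tested with edgeR 4.0.16 (R 4.3.3) by its quasi-likelihood F test. Dispersion was 0 at introns, a choice carried over from earlier work on these data, and was estimated at genes. That work had found no power with an estimated dispersion at introns. Reads over introns per gene were tested by the same method after TMM scaling. Features had at least 10 reads in every sample. P-values were adjusted by Benjamini-Hochberg over all features of all genes and called at 0.05. Alternatives were DESeq2 1.42.0, limma 3.58.1, other minimums, all annotated introns, leaving out a sample and a replicate block. The 40 genes and all lists were chosen with earlier results of these data known. Genes named with values are the 5 with the lowest p-values in each direction per gene test, the 6 introns in each direction and the 6 least spliced introns, at most 2 per gene, and 3 genes of the wider list per test, plus genes that describe a role. Introns under 10 reads were described, and tested only in the alternative with a minimum of 1 read. Alternative sites and shares along the gene were described without a test. Replicate numbers are those of the sample titles. Per the files' own sample column, the K700E samples are numbered 2 and 3 and the WT samples 1 and 2. The numbers of the titles and of the files thus do not match for K700E. In the files a K700E and a WT sample share the number 2. Whether any samples were paired is not stated.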

Additional observations from a re-analysis of the deposited data

How the results depend on the processing

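None of the 36 introns and 39 genes was called for splicing under any alternative run, and for nascent level only KIF20A was, without WT replicate 2. Over all introns, where 5 were called, DESeq2 and limma called 0, an estimated dispersion 1, a minimum of 1 read 3, and leaving out each sample 0 to 10. Over all genes by efficiency, where 1 was called, all annotated introns, dispersion 0 and limma gave 0, a minimum of 1 read 2, and leaving out each sample 0 to 2. Over all genes by nascent level, where 0 were called, DESeq2 and all annotated introns gave 1, no minimum 16, and leaving out each sample 0 to 62, with 62 without WT replicate 2. Leaving out each sample moved the median difference of the mitosis genes between −4.25 and 1.5 points by gene efficiency, positive without WT replicate 1, between −2.63 and 1.06 points by intron, between −0.42 and 0.21 by log2 nascent level, and between −2.95 and 4.92 points by share on later introns. The causes were not tested.

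Samples with the same number in their titles correlated at −0.17 (introns), −0.12 (genes) and −0.09 (nascent level). With the replicate number as a block, 4 introns, 1 gene by efficiency and 0 by nascent level were called over all genes, and 0 mitosis genes. With the numbers crossed, an alternative chosen after seeing the data, K700E replicate 1 was put with WT replicate 2. The calls were then 4, 3 and 2, and 0 mitosis genes. Which of these pairings, if any, holds is not known.

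The 36 named results gave 425 values under the alternatives, and 12 of these values reversed, all on leaving out a sample. Another test or a block leaves the percentage difference of an intron or gene as it is by construction, so those alternatives bear only on the calls. The ranges on leaving out each sample were −18.2 to 5.83 points for SMC4 intron 4, −13.4 to 1.52 for ASPM intron 14, −3.85 to 14.9 for BUB1 intron 17, −0.015 to 4.28 for NUSAP1 intron 1, −7.71 to 5.44 for CDK1 intron 6, −5.36 to 7.25 for ASPM intron 11, −15.4 to 8.33 for CKAP5 intron 30, −5.39 to 10.2 for CKAP5 intron 6, and −1.56 to 0.061 (log2) for the nascent level of RAD21. Depth limited the intron comparison to the 8 of 40 genes with an intron of at least 10 reads in every sample.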
